A study of Mus musculus with 4 samples.

Results

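Hnf4a, Ppara, Rxra, Esrra, Ppargc1a, Nr1h4, Mlxipl and Maf are 8 of the 32285 genes counted in each library, and they were chosen as listed genes by their symbols, each of which names 1 gene identifier. They encode regulators of transcription that are associated with the proximal tubule (PT), the nephron segment that takes back most filtered solutes. Single-cell RNA-Seq with a 3′ kit was performed on whole kidneys of male C3H mice, 18 weeks of age, in 4 groups of 1 library each. WT-ND mice were wild type and kept on normal diet, and WT-HFD mice were wild type and received a high-fat diet with 60% of calories from fat. MT-ND and MT-HFD mice carried the Slc5a2 missense allele known as Sweet Pee, which leaves the glucose cotransporter SGLT2 without function, on the same 2 diets. Diets began at 10 weeks of age and lasted 8 weeks. All 4 groups shared strain, sex, age and enzymatic digestion, and the number of mice behind each library is not given in the sources used here. The comparisons ask how the levels of these regulators differ along the nephron, and whether diet or loss of SGLT2 goes with a difference inside the PT.

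HNF4A is a nuclear receptor that drives transport and metabolic genes of hepatocytes and PT cells. PPARA senses fatty acids, NR1H4 (FXR) senses bile acids, and both bind DNA together with RXRA. ESRRA (ERR alpha) is an orphan receptor that works with the coactivator PPARGC1A (PGC-1 alpha) on genes of mitochondrial energy metabolism. MLXIPL (ChREBP) is a basic helix-loop-helix factor that responds to sugar phosphates and turns on genes of glycolysis, fructose handling and fat synthesis. MAF (c-Maf) is a basic leucine zipper factor with roles in lens, macrophages, T cells and kidney tubule.

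In GRCm38, Hnf4a lies at chr2:163506808-163572910 and Rxra at chr2:27676440-27762957, both on the plus strand. Ppara lies at chr15:85734983-85802819 and Mlxipl at chr5:135089890-135138382, also on the plus strand. On the minus strand are Esrra (chr19:6910977-6921813), Ppargc1a (chr5:51454250-51567726), Nr1h4 (chr10:89454234-89533585) and Maf (chr8:115682942-115707794). Reads of a 3′ library count a gene as a whole, so the values below do not tell its alternative starts apart.

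Promoters are shown because several members were high in the same cells. RefSeq promoter entries on GRCm38.p6 were found for 7 of the 8 members, with 10 starts in all, and 2 starts each for Hnf4a, Rxra and Mlxipl. The 250 bases before each start were searched on both strands for 4 motifs. These were AGGTCA, the element that nuclear receptors bind (14.0% of 32851 mouse promoters held it), the E-box CACGTG (6.02%), TGCTGA of MAF factors (16.1%) and CAAAGTCCA of HNF4 factors (0.384%). No matches overlapped each other. Nr1h4 held 1 nuclear receptor match, 214 to 209 bases before its only listed start, at position 89506658. That start lies inside the gene as given above, so the bases before its outer end at 89533585 were not searched. Rxra held 2 nuclear receptor matches before its downstream start, and Mlxipl held 1 E-box before its upstream start, 17001 bases from the other. Ppargc1a held only a MAF match, and none of the 4 motifs was found before the Hnf4a, Ppara and Esrra starts. The windows are printed from 5′ to 3′ on the strand of the gene, with matches in capitals, and a match describes letters, not binding. A nuclear receptor match on the opposite strand reads TGACCT.
Nr1h4, chr10:89506659-89506908, minus strand: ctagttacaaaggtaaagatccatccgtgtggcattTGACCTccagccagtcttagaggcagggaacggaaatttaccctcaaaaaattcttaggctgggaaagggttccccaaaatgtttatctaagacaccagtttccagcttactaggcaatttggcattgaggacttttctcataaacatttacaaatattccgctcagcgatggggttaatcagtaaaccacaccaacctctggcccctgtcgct
Rxra, downstream start, chr2:27709042-27709291, plus strand: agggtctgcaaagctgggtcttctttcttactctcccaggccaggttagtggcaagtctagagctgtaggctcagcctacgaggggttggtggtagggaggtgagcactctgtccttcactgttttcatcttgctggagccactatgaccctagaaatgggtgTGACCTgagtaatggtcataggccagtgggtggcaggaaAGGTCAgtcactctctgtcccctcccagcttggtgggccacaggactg
Mlxipl, upstream start, chr5:135089640-135089889, plus strand: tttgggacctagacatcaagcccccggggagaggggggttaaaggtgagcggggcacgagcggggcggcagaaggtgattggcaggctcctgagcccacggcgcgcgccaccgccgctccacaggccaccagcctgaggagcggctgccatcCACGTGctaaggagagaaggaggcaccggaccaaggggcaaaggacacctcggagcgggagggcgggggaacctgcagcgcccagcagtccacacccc
Ppargc1a, chr5:51567726-51567975, minus strand: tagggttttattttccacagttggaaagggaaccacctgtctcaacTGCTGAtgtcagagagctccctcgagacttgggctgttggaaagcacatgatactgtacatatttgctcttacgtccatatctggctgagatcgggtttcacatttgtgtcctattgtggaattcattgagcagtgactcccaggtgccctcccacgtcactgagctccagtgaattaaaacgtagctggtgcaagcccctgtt

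Cells were assigned to segments by UMIs (unique molecular identifiers, counted molecules) of marker genes that did not include the members. Early PT held 1698, 894, 918 and 434 cells in WT-ND, WT-HFD, MT-ND and MT-HFD, and late PT held 410, 243, 64 and 192 cells. The distal segments were the thick ascending limb (TAL), the distal convoluted and connecting tubule (DCT/CNT), principal cells and intercalated cells, with 135 to 1059 cells per library and class. The libraries held 90728590 to 115117649 UMIs in 13229 to 16385 barcodes, of which 32.7% to 49.8% were left out for 50% or more mitochondrial UMIs. Between 54 and 77 barcode sequences were shared by any pair of libraries. Cells that passed both the PT gate and a distal gate were left out, and numbered 403 in WT-ND, 687 in WT-HFD, 121 in MT-ND and 57 in MT-HFD. Slc5a2, the mutated gene, stood at 506 and 349.7 CPM (UMIs of the gene per 1000000 UMIs of the class) in early PT of WT-ND and WT-HFD, and at 74.3 and 139 CPM in MT-ND and MT-HFD, although UMIs do not read the missense base.

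Within the tubule, the label of a PT group held for 6 of the 8 genes. Hnf4a, Maf, Mlxipl, Nr1h4, Ppara and Rxra were higher in both early and late PT than in the distal segments. Ppargc1a was lower in PT, and Esrra was about level between PT and distal cells, so neither marked the PT here. In the edgeR quasi-likelihood test with the library as a block, 7 members passed an adjusted p of 0.05 as higher in early PT and 1 as lower, where 35.9% and 35.6% of the 11849 genes tested passed in these directions. In late PT, 6 members were higher and 1 was lower, against 31.6% and 33.5% of all genes. Both contrasts use the same distal sums. Each fitted fold averages the 4 distal classes on the log2 scale after TMM scaling, so it need not equal a ratio of the CPM printed below. Within a library, early PT over the mean distal CPM was log2 4.54 to 5.08 for Maf, beside 5.37 in the fit. For Hnf4a, Mlxipl and Rxra it was 4.30 to 5.41, 3.83 to 4.28 and 0.99 to 1.38, beside 5.45, 4.57 and 1.62. For Ppara the range of 1.78 to 3.12 held the fitted 3.04. The median log2 fold of all genes was -0.021 for early and -0.070 for late PT. The 4 libraries served as replicates of the class comparison, although their diets and genotypes differ. With total UMIs in place of TMM scaling the median of all genes moved to -0.43 and -0.48, and the share of calls that were higher moved from 50.2% to 27.7% in early PT and from 48.5% to 27.6% in late PT.

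**Figure D1:**
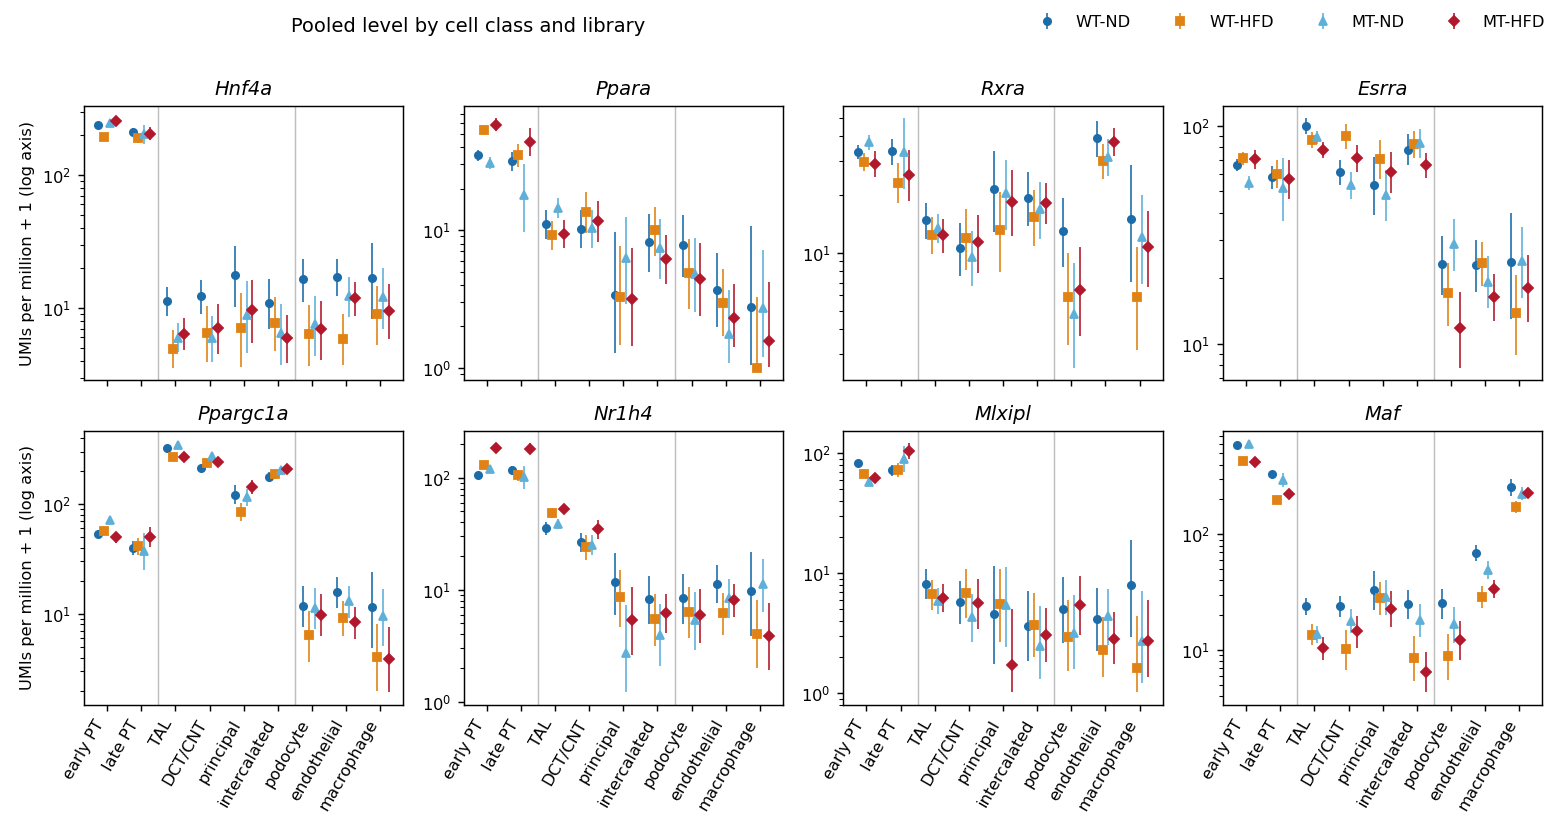
Pooled level of each member (CPM plus 1, log axis) in 9 cell classes, 1 point per library with its exact Poisson 95% interval. The grey lines part PT, distal and other classes: Hnf4a, Mlxipl and Maf sit far above their distal levels in PT, Ppargc1a sits lowest of the tubule classes there, and Maf is also high in macrophages.

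Hnf4a was at 237, 191, 247 and 252 CPM in early PT of WT-ND, WT-HFD, MT-ND and MT-HFD, and at 210.2, 189, 201 and 204 CPM in late PT. In TAL it was at 10.2, 3.94, 4.99 and 5.37 CPM, and no distal value in any library exceeded 16.7 CPM. The lowest PT library thus lay far above the highest distal one. The fitted log2 fold over the distal classes was 5.45 ± 0.11 (SE) in early PT (edgeR adjusted p = 8.64e-24) and 5.22 ± 0.12 in late PT (edgeR adjusted p = 9.37e-23). Free RNA in droplets bears on such low values. Hnf4a in TAL was 2.02% to 4.31% of its early PT level within a library, and the 6 pan-PT markers in TAL, among them the endocytic receptor Lrp2 and the phosphate transporter Slc34a1, were at 1.22% to 5.83% of theirs. Endothelial cells held Hnf4a at 16.2, 4.87, 11.2 and 10.8 CPM, more than TAL in each library, so the TAL level was not above that background. The PT markers stood at 2.05% to 8.12% of their early PT level in endothelial cells. TAL and endothelial cells whose PT markers reached the PT threshold, or a set part of it, were left out, which limits the marker shares in both.

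Mlxipl was at 81.7, 66.4, 56.7 and 61.1 CPM in early PT and at 71.3, 71.3, 88.7 and 104 CPM in late PT, in the same order of libraries. TAL held 4.88 to 7.19 CPM and principal cells 0.726 to 4.53 CPM, so PT and distal values did not overlap. Mlxipl was 23.8-fold higher in early PT than in distal classes (log2 4.57 ± 0.11, edgeR adjusted p = 3.66e-22) and 28.7-fold higher in late PT (edgeR adjusted p = 2.23e-21). In TAL it was at 8.53% to 8.80% of the early PT level, above the 1.22% to 5.83% of the PT markers, and in endothelial cells at 1.95% to 5.94%.

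Maf had 591, 427, 599 and 424 CPM in early PT and 330.4, 196, 296 and 222 CPM in late PT. No distal class held more than 32.3 CPM in any library. Maf was 41.3-fold higher in early PT than in distal classes (log2 5.37 ± 0.11, edgeR adjusted p = 1.64e-23) and 20.4-fold higher in late PT (log2 4.35 ± 0.12, edgeR adjusted p = 3.28e-21). Outside the tubule, macrophages held 253, 171, 224 and 226 CPM and T or NK cells 164 to 201 CPM, from 10 to 85 UMIs in the latter. Late PT values overlapped those of macrophages and of T or NK cells. Maf thus set early PT apart from all classes outside the PT, but did not set late PT apart from these immune classes. TAL held 2.12% to 3.86% of the early PT level, inside the range of the PT markers.

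Nr1h4 was at 105, 129, 118 and 182 CPM in early PT and at 115, 105, 100.0 and 181 CPM in late PT. Among distal classes it was graded: TAL held 34.3 to 51.7 CPM and DCT/CNT 23.0 to 33.6 CPM, with no overlap between them, and principal and intercalated cells held 1.75 to 10.8 CPM. In TAL this was 28.4% to 36.8% of the early PT level, far above the share of the PT markers, and endothelial cells held 5.19 to 10.3 CPM. Over the distal classes averaged on the log2 scale, the fitted log2 fold was 3.72 ± 0.11 in early PT (edgeR adjusted p = 2.68e-20) and 3.60 ± 0.13 in late PT (edgeR adjusted p = 7.68e-19). Within a library, early PT over the mean distal CPM was lower, at log2 2.43 to 2.94. Under other settings the fitted early PT value ran from 2.43 to 3.91.

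Ppara stood at 34.0, 52.1, 29.7 and 57.3 CPM in early PT and at 30.9, 34.2, 16.9 and 42.9 CPM in late PT, where the MT-ND value rests on 12 UMIs. TAL held 8.19 to 13.6 CPM and DCT/CNT 9.25 to 12.6 CPM, while endothelial cells held 0.748 to 2.69 CPM. Ppara was thus highest in PT, lower in TAL and DCT/CNT, and lower again in endothelial cells. It was 8.22-fold higher in early PT than in distal classes (log2 3.04 ± 0.16, edgeR adjusted p = 3.87e-15) and 6.35-fold higher in late PT (edgeR adjusted p = 1.79e-11).

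Rxra, the shared partner of PPARA and NR1H4, was the least PT-restricted of the 6, and its mean level was highest outside the tubule, in fibroblasts or mural cells (40.4 CPM), then endothelial cells (33.5 CPM) and early PT (31.2 CPM). Early PT held 32.2, 28.4, 36.3 and 27.9 CPM and late PT 32.5, 22.0, 32.4 and 24.4 CPM, against 8.47 to 20.3 CPM in the distal classes. Endothelial cells held 28.9 to 38.2 CPM and fibroblasts or mural cells 21.8 to 53.8 CPM, which overlapped the PT values. Over distal classes Rxra was 3.08-fold higher in early PT (log2 1.62 ± 0.08, edgeR adjusted p = 2.00e-15) and 2.72-fold higher in late PT (edgeR adjusted p = 1.10e-11).

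Esrra was at 65.0, 70.1, 53.7 and 69.2 CPM in early PT and 50.7 to 59.2 CPM in late PT. TAL held 98.5, 84.7, 87.4 and 76.8 CPM, intercalated cells 64.8 to 82.4 CPM and principal cells 47.3 to 69.5 CPM. Within a library, early PT was below the mean of the distal classes in 3 of 4 libraries (log2 -0.15, -0.21 and -0.33) and at 0.026 in MT-HFD. The fit with TMM scaling put early PT at log2 0.26 ± 0.10 above distal (edgeR adjusted p = 0.0173), and with total UMIs this was -0.15 (edgeR adjusted p = 0.147). The call was lost without WT-ND (log2 0.24, edgeR adjusted p = 0.0602) and without MT-HFD (log2 0.20, edgeR adjusted p = 0.119). Late PT differed from distal by log2 0.052 ± 0.11 (edgeR adjusted p = 0.709), and by -0.35 with total UMIs (edgeR adjusted p = 0.00555). Its direction therefore depended on the scaling, and all tubule classes were above endothelial cells (15.5 to 22.4 CPM).

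Ppargc1a had its lowest tubule level in PT. Early PT held 52.5, 55.8, 70.9 and 48.7 CPM and late PT 38.7, 40.4, 36.6 and 49.4 CPM. TAL held 319.9, 268, 346 and 266 CPM, DCT/CNT 212 to 272 CPM, intercalated cells 174 to 208 CPM and principal cells 83.1 to 142 CPM, so no distal value reached down to PT. TAL and DCT/CNT overlapped, whereas DCT/CNT, intercalated and principal cells each lay above the next without overlap. Early PT was lower than distal by 1.39 ± 0.11 on the log2 scale, given as log2 -1.39 (edgeR adjusted p = 1.29e-11), and late PT by log2 -1.83 ± 0.13 (edgeR adjusted p = 1.33e-12). TAL markers in PT cells amounted to 109 to 312 CPM summed over 3 genes, against 17106 CPM or more in TAL.

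**Figure D2:**
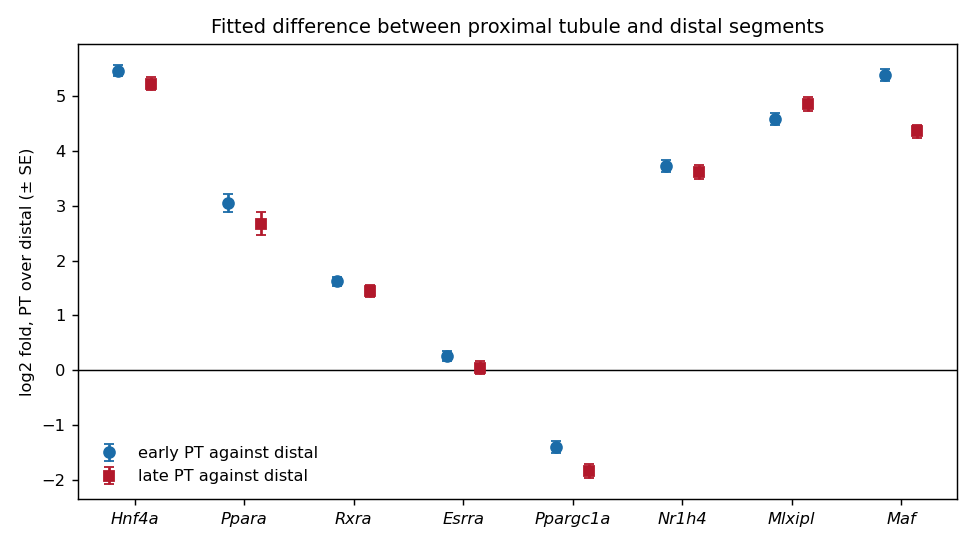
Log2 fold of each member in early PT (circles) and late PT (squares) over 4 distal classes averaged on the log2 scale, from edgeR over 24 class-by-library sums, with SE bars. The other 6 genes lie above 1, Esrra lies near 0 and Ppargc1a lies at -1.39 and -1.83.

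Between early and late PT, Maf was the only member past the threshold, 2.02-fold higher in early PT (log2 1.02 ± 0.15, edgeR adjusted p = 2.60e-05), where 5.22% of 11849 genes were called higher and 4.19% lower. Maf was higher in early PT within each of the 4 libraries. Ppargc1a had log2 0.44 ± 0.14 (edgeR adjusted p = 0.0525), and passed without MT-HFD (log2 0.55, edgeR adjusted p = 0.0268). Mlxipl went the other way at log2 -0.27 ± 0.12 (edgeR adjusted p = 0.198). Hnf4a, Nr1h4, Rxra, Ppara and Esrra had log2 values of 0.24, 0.11, 0.18, 0.37 and 0.21, with edgeR adjusted p from 0.283 to 0.719.

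Relatives and partners of the members were called in both directions. Of 20 such genes, 19 were tested in early PT against distal, and 7 were higher, 9 lower and 3 not called, with a median log2 of -0.18. Of all genes tested in this contrast, 35.9% were higher and 35.6% lower. Among those higher in early PT were Hnf4g, the paralogue of Hnf4a (log2 7.30 ± 0.38, at 8.09 to 14.1 CPM in early PT and 0.108 to 0.719 CPM in TAL), Pparg (log2 4.72), Nr1h3, the LXR alpha gene (log2 3.01), Mafg (log2 1.42) and Mlx, the binding partner of ChREBP (log2 0.78). Among those lower in early PT were Nr0b2, the SHP corepressor (log2 -4.21, at 25.5 to 37.1 CPM in TAL), Maff (log2 -2.32), Esrrb (log2 -2.31, at 32.3 to 36.5 CPM in TAL) and Mlxip, the MondoA gene (log2 -1.41). Also lower were Esrrg (log2 -0.69), Mafk (log2 -0.68), Ppargc1b (log2 -0.51) and Rxrb (log2 -0.25). Both Esrrb and Esrrg, the paralogues of Esrra, were thus distal, as Ppargc1a was. In late PT the counts were again 7 higher, 9 lower and 3 not called, where 31.6% of all genes were higher and 33.5% lower.

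Other regulators active in PT gave 6 higher, 2 lower and 3 not called among 11 tested of 13 listed, with a median log2 of 0.71. The shares of all genes in early PT were 35.9% higher and 35.6% lower. The glucocorticoid receptor Nr3c1 (log2 1.77), Klf15 (log2 1.55) and the vitamin D receptor Vdr (log2 1.12) were past 2-fold. Of 12 regulators of other segments, none was higher in early PT, 8 were lower and 4 were not called, with a median log2 of -2.40, among them Grhl2 (log2 -5.22), Tfap2b (log2 -4.94) and Pou3f3 (log2 -4.20). In late PT 8 were lower and Irx1 was higher (log2 1.99, edgeR adjusted p = 0.00361), with 49.3 CPM in MT-ND and 17.9 CPM in MT-HFD against 1.24 and 3.94 CPM in WT-ND and WT-HFD. That contrast averages the distal classes, and TAL alone held more Irx1 than late PT in each library, at 114 to 149 CPM.

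Known target genes of HNF4A, PPARA, ChREBP and FXR were mostly high in PT, and those of ERR alpha and PGC-1 alpha were not. In early PT against distal, 7 of 8 HNF4A targets were higher and none lower (median log2 5.64), 8 of 10 PPARA targets were higher and 1 lower (2.80), and 5 of 6 ChREBP targets were higher and 1 lower (4.63). Of all genes tested, 35.9% were higher and 35.6% lower. Of 4 FXR targets tested, 3 were higher and 1, Nr0b2, was lower, and Nr0b2 also stood among the partners above. Of 8 targets of ERR alpha and PGC-1 alpha, all of mitochondrial respiration, 4 were higher, 2 lower and 2 not called, with a median log2 of 0.14, beside -0.021 for all genes. Examples are the bile salt exporter subunits Slc51a (log2 5.52) and Slc51b (log2 5.78), the fructose enzyme Khk (log2 4.53) and the peroxisomal enzyme Ehhadh (log2 3.83). Exceptions besides Nr0b2 were Txnip (log2 -3.96) and Pdk4 (log2 -1.81), which were lower in early PT than in distal cells.

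For diet and genotype each group is 1 library, so no test was possible, and the intervals given below cover counting error only, with PCR duplicates already collapsed by UMI. None of the 8 members was past 2-fold in early PT in any of the 4 comparisons, where 3.28% (HFD against ND in WT), 5.17% (HFD against ND in MT), 1.26% (MT against WT on ND) and 0.669% (MT against WT on HFD) of genes at 20 CPM or more were. In late PT 1 member was past 2-fold, Ppara for HFD against ND in MT, where 9.22% of genes were. None was in late PT for HFD against ND in WT, MT against WT on ND or MT against WT on HFD, where 4.63%, 6.69% and 2.81% of genes were. The differences of members described next for early and late PT are therefore smaller than 2-fold, except for Ppara in late PT. In PT cells assigned to neither class, Ppara was past 2-fold for HFD against ND in MT (log2 1.08, 0.66 to 1.50). For MT against WT on HFD, all 8 members lay above 0 in these cells, with a median log2 of 0.68 against 0.10 for all genes. TAL markers summed there to 747 CPM in WT-HFD and 269.5 CPM in MT-HFD, and their part was not tested. Comparisons that share a library, such as both against WT-ND, are not independent of each other.

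**Figure D3:**
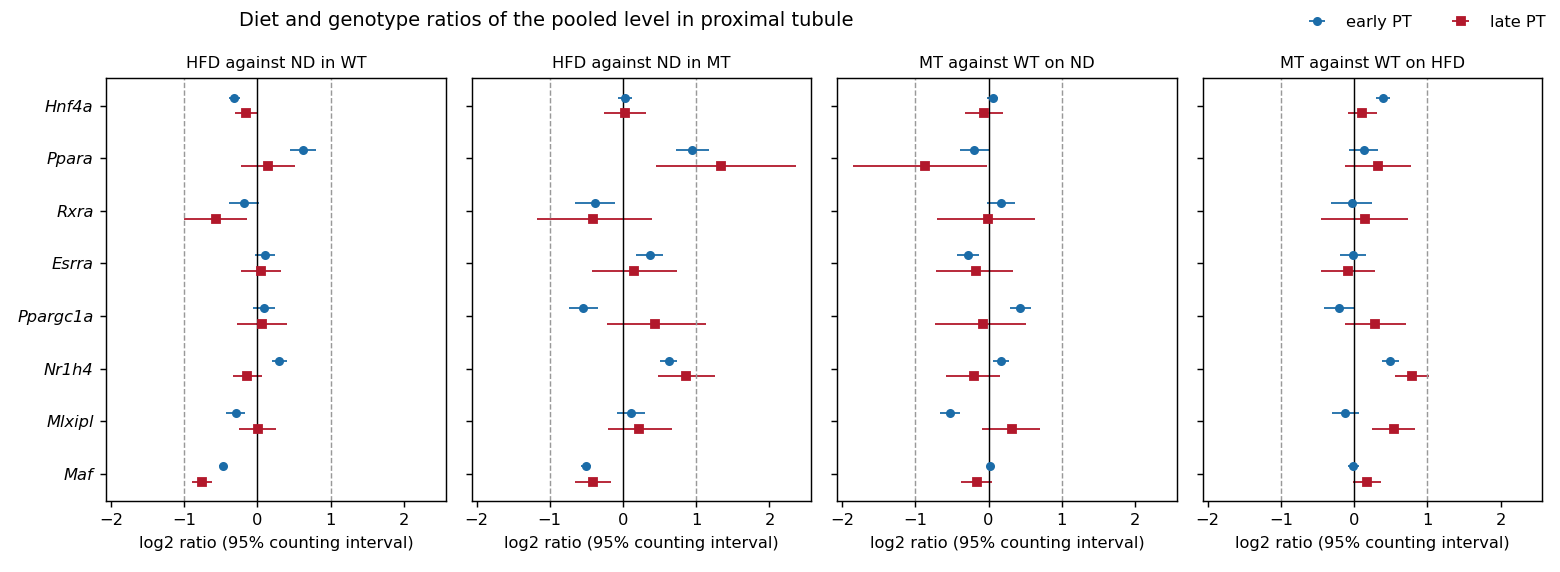
Log2 ratio of the pooled level of each member in early PT (circles) and late PT (squares) for HFD against ND in each genotype and MT against WT on each diet, with exact 95% counting intervals and 1 library per group. Dashed lines mark 2-fold: only Ppara in late PT of MT lies past them, and Maf lies below 0 in both diet panels.

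Maf was lower on HFD in both genotypes. In early PT it went from 591 to 427 CPM in WT (log2 -0.47, 95% interval -0.52 to -0.42) and from 599 to 424 CPM in MT (log2 -0.50, -0.57 to -0.43), while MT and WT on the same diet were at log2 0.020 and -0.0094. In late PT the diet ratio was log2 -0.75 (-0.89 to -0.61) in WT and -0.41 (-0.66 to -0.16) in MT. PT cells that were assigned to neither class, because of intermediate marker shares or too few marker UMIs, gave log2 -0.90 and -0.52. In these cells TAL markers summed to 206 and 747 CPM and macrophage markers to 22.3 and 171 CPM in WT-ND and WT-HFD. In macrophages Maf was at 253 CPM in WT-ND and 171 CPM in WT-HFD, and at 224 and 226 CPM in MT. Outside the PT, Maf was lower on HFD in both genotypes in all 4 distal classes, podocytes, endothelial cells and fibroblasts or mural cells. Endothelial cells held 68.3 and 27.9 CPM in WT-ND and WT-HFD and 48.2 and 32.6 CPM in MT-ND and MT-HFD. T or NK cells went the other way, at 164 and 192 CPM in WT and 187 and 201 CPM in MT. So did neutrophils and B cells, on at most 5 UMIs. A lower level was thus also read outside the PT, but not in T or NK cells or in macrophages of MT. In TAL, Maf was at 2.12% to 3.86% of its early PT level, inside the range of the PT markers. The 6 pan-PT markers in TAL summed to 391 and 167 CPM in WT-ND and WT-HFD. In MT-ND and MT-HFD they summed to 175 and 134 CPM. How much of the Maf outside the PT was free RNA of PT cells was not tested. In early PT 19.0% of genes had as large a diet ratio in WT and 18.1% in MT. Immediate early genes (4 markers summed) moved with it in early PT, at 224 and 162 CPM in WT-ND and WT-HFD and 237 and 129.8 CPM in MT-ND and MT-HFD, but in late PT at 96.5 and 177 CPM in WT and 166 and 177 CPM in MT. The 5 macrophage markers, in a class that also holds Maf, summed to 46.9, 65.3, 77.4 and 33.0 CPM in early PT of WT-ND, WT-HFD, MT-ND and MT-HFD. The pan-PT markers were lower on HFD too, at 9325 and 7774 CPM in WT and 8600.3 and 7736 CPM in MT. Their part in the result, and that of the immediate early and macrophage genes, was not tested. Under all 10 other settings the early PT ratio stayed between log2 -0.64 and -0.42 in WT and between -0.82 and -0.44 in MT. In late PT of MT it ran from -0.49 to 0.11, the highest being a mean over cells.

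Ppara was higher on HFD in early PT of both genotypes, while several genes that PPARA turns on were lower. The level went from 34.0 to 52.1 CPM in WT (log2 0.62, 0.44 to 0.79) and from 29.7 to 57.3 CPM in MT (log2 0.95, 0.73 to 1.17). In late PT it was log2 0.15 (-0.23 to 0.52) in WT and 1.34 (0.45 to 2.36) in MT, the latter from 12 and 72 UMIs. Over the same diet comparison in early PT of MT, 4 of 7 PPARA targets at 20 CPM or more were past 2-fold lower and none higher (median log2 -1.26, against -0.0078 for all genes). Among them were the fatty acid hydroxylases Cyp4a14 (311 to 0.878 CPM) and Cyp4a10 (377 to 48.8 CPM) and the peroxisomal enzyme Ehhadh (323 to 135 CPM). A target entered with 20 CPM in either library, and 7 entered here against 5 for MT against WT on HFD. Targets that entered only through MT-ND, Cyp4a14 among them, could only be called lower, and they also enter the median. In WT, Cyp4a10 went from 85.5 to 37.0 CPM and was the only 1 of 5 past 2-fold (median log2 -0.31). Below the 20 CPM minimum there, Cyp4a14 went from 12.9 to 0.348 CPM. Acadm, a further PPARA target, was at log2 0.0067 in early PT of MT. On ND, Cyp4a14 (log2 4.59, 4.38 to 4.81) and Cyp4a10 (log2 2.14) were higher in MT than in WT, where Ppara itself was at log2 -0.19 (-0.40 to 0.0070). PT cells that also passed a distal gate, most numerous in WT-HFD, are not in these levels. They held Ppara at 15.5, 22.5, 15.7 and 31.2 CPM in WT-ND, WT-HFD, MT-ND and MT-HFD, from 11 UMIs in each MT library. The paper on these data reports lower Ppara and Hnf4a in a PT cluster seen on HFD, which also expressed Slc12a1 and Umod. Whether the cells left out here belong to that cluster was not tested.

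**Figure D4:**
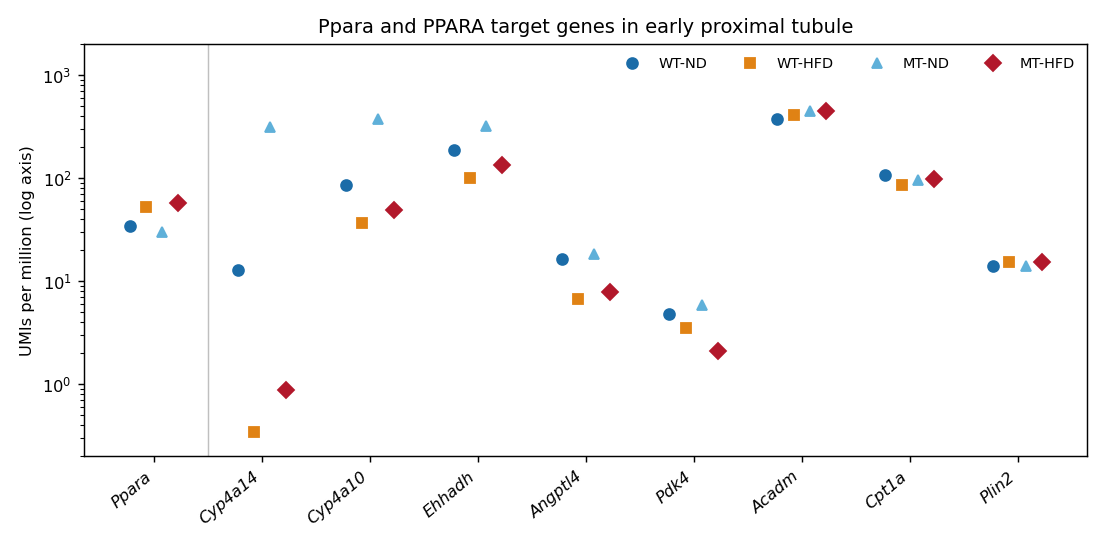
Pooled level (CPM, log axis) of Ppara and 8 of its target genes in early PT, 1 point per library. Ppara lies higher in both HFD libraries, Cyp4a14, Cyp4a10, Ehhadh and Angptl4 lie lower in them, and Acadm and Plin2 lie at nearly the same level in all 4.

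Ppard, the paralogue of Ppara, was lower on HFD. In early PT it was at 16.3 and 2.17 CPM in WT-ND and WT-HFD (log2 -2.91, -3.57 to -2.31) and at 23.0 and 2.81 CPM in MT-ND and MT-HFD (log2 -3.03, -3.86 to -2.31). In late PT it went from 21.3 to 4.27 CPM in WT, and from 9.85 to 5.96 CPM in MT on 7 and 10 UMIs. Ppard was under the 20 CPM minimum in early PT of WT and late PT of MT, and elsewhere reached it only in the ND library. By their ratios Ppara and Ppard thus lay in opposite directions between the diets. In late PT of WT, however, the interval of the Ppara ratio included 0 (log2 0.15, -0.23 to 0.52).

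Nr1h4 was highest in MT-HFD in both PT classes. In early PT the level was 182 CPM in MT-HFD against 118 CPM in MT-ND (log2 0.62, 0.51 to 0.74) and 129 CPM in WT-HFD (log2 0.50, 0.38 to 0.61), and 3.15% of genes had as large a ratio between the HFD libraries. Over MT-ND, 12.7% of genes had as large a ratio in early PT. In late PT the ratio was log2 0.86 (0.48 to 1.25) over MT-ND and 0.79 (0.56 to 1.02) over WT-HFD, and 13.4% and 5.52% of genes had as large ones. In WT the diet ratio was log2 0.30 in early PT and -0.14 in late PT. TAL held Nr1h4 at 34.3, 47.6, 37.5 and 51.7 CPM in WT-ND, WT-HFD, MT-ND and MT-HFD. It was thus higher on HFD in both genotypes there, and the counting intervals of WT-HFD (42.3 to 53.2) and MT-HFD (46.6 to 57.2) overlapped. FXR targets did not move as a group in early PT of MT on HFD: Slc51a went from 42.1 to 132 CPM (log2 1.65, 1.48 to 1.81), Slc51b from 67.6 to 66.0 CPM and Abcc2 from 206 to 131 CPM. Slc51a was at 93.5 and 127 CPM in WT-ND and WT-HFD, so its low level was that of MT-ND.

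Hnf4a in early PT was lower in WT-HFD, at 191 CPM, than in WT-ND (log2 -0.32, -0.39 to -0.24) and than in MT-HFD (MT against WT log2 0.40, 0.30 to 0.50). In MT the diet ratio was log2 0.028 (-0.064 to 0.12). In WT early PT 38.3% of genes had as large a diet ratio. The 6 pan-PT markers summed to 9325, 7774, 8600.3 and 7736 CPM in early PT of WT-ND, WT-HFD, MT-ND and MT-HFD, and the 4 early PT markers to 2881, 2385, 2754 and 2723 CPM, so both sums were also lower in WT-HFD than in WT-ND. In late PT WT-HFD was again the lowest library, at 189 CPM, but the range over the 4 libraries was only 189 to 210.2 CPM. The early PT sum of WT-HFD also held more RNA of other segments: the 5 DCT/CNT markers summed to 109 CPM there against 37.9 to 42.9 CPM in the other libraries, and in late PT to 147 CPM against 39.4 to 51.6 CPM. All 5 were detected in early PT of each library. Distal tubule cells held Hnf4a at 3.94 to 16.7 CPM, and the part of such RNA and of the lower marker sums in the result was not tested. PT cells that also passed a distal gate, left out here, held Hnf4a at 108, 98.4, 147 and 168 CPM in WT-ND, WT-HFD, MT-ND and MT-HFD. The HNF4A target Pck1, the gluconeogenic enzyme, was higher on HFD in both genotypes (502 to 3637 CPM in WT and 519 to 5027 CPM in MT), and the median of the 8 targets was log2 -0.016 in WT and 0.12 in MT.

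In early PT Mlxipl was highest in WT-ND, at 81.7 CPM, and lower in MT-ND (log2 -0.53, -0.67 to -0.39) and WT-HFD (log2 -0.30, -0.43 to -0.17). Cells under 30% mitochondrial UMIs gave log2 -0.0005 and -0.018 for these ratios. In late PT it was highest in MT-HFD, at 104 CPM (MT against WT on HFD log2 0.54, 0.24 to 0.83). Ppargc1a was highest in early PT of MT-ND, at 70.9 CPM, above WT-ND (log2 0.43, 0.29 to 0.58) and MT-HFD (diet log2 -0.54, -0.74 to -0.34). In late PT of MT its diet ratio was log2 0.43 (-0.22 to 1.13). Esrra in early PT was lowest in MT-ND (log2 -0.28 against WT-ND, -0.42 to -0.13), and Rxra was lower on HFD in MT (log2 -0.38, -0.65 to -0.11) and at log2 -0.18 (-0.39 to 0.027) in WT. Of the ChREBP targets, Khk was higher on HFD in early PT of WT (409 to 696 CPM) and MT (380.4 to 599 CPM), beside 61.1 CPM of Mlxipl in MT-HFD and 56.7 CPM in MT-ND.

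For Hnf4a, Maf and Ppargc1a, detection per cell put early PT and TAL in the same order as the pooled levels. For Rxra this did not hold in WT-HFD, where 1.46% of early PT and 1.61% of TAL cells held it after thinning. Cells were thinned to 1000 UMIs each, and 3 to 40 early PT cells per library were too shallow for it. Hnf4a was found in 21.5%, 14.1%, 20.2% and 23.9% of early PT cells of WT-ND, WT-HFD, MT-ND and MT-HFD, in 0.807% to 1.73% of TAL cells and in 0.859% to 1.92% of endothelial cells. Without thinning these shares were 73.4% to 83.0%, 3.36% to 5.87% and 2.58% to 7.26%, at median depths of 7453 to 13332, 5598 to 9151 and 2896 to 3955 UMIs. Maf was found in 41.8%, 30.1%, 45.3% and 35.0% of early PT cells, and without thinning in 81.4% to 93.2%. Ppargc1a was found in 4.38% to 7.83% of early PT and 20.0% to 27.0% of TAL cells. Ppara was found in 3.26% to 5.20% of early PT cells. In the cells left out for carrying both PT and distal markers, Hnf4a was at 98.4 to 168 CPM, Maf at 133 to 339 CPM and Ppargc1a at 99.5 to 206 CPM, each between its early PT and TAL levels. Rxra and Esrra, at 34.1 and 82.3 CPM in MT-HFD, lay above both, but on 12 and 29 UMIs. Their intervals, 17.6 to 59.5 and 55.1 to 118 CPM, include the early PT level of each gene. In WT-HFD Esrra, at 68.9 CPM, lay below both.

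Over 52 class-by-library sums of at least 20 cells, 7718 genes were ranked by Pearson r of log2(CPM + 1) with each member, which describes shared cell classes and carries no p. Most like Hnf4a were Pecr (r = 0.939), Acaa1b (0.933) and Slc51b (0.925), and most like Mlxipl were Glyctk (0.924), Akr1d1 (0.923) and Gm32461 (0.921). Nr1h4 ran with Tinag (0.917), Cdhr5 (0.908) and Ggt1 (0.872), and Ppara with 4833439L19Rik (0.911), Hint2 (0.905) and Hadh (0.893). Ppargc1a ran with Tmprss2 (0.938), Lad1 (0.937) and Atp5g1 (0.914), and Esrra with Bckdha (0.870), Klhdc10 (0.859) and Srek1ip1 (0.841). Least closely matched were Maf, with Gpx1 (0.869), Cyba (0.850) and Ass1 (0.833), and Rxra, with Acyp2 (0.837), Gcsh (0.812) and Rab34 (0.776). Among the members themselves the highest r was 0.872, between Ppara and Mlxipl, and the lowest was -0.292, between Ppargc1a and Maf. The sums share libraries and their depth.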

How the data were processed

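Single-cell RNA-Seq of 4 kidney libraries was analysed, 1 per group. The values the authors deposited are counts of UMIs per gene and barcode, as matrices with genes, barcodes and counts in separate files. The submitters' processing notes name Cell Ranger 2.1.1 and mm10, while the matrix headers name Cell Ranger 6.1.2, so the version behind the counts is uncertain. Members, gene lists and gates were chosen with earlier results of these data known. The library totals are 90728590 to 115117649 UMIs.

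Cells with 200 to 5000 genes and under 50% mitochondrial UMIs were kept, and classed by marker UMIs per 10000 UMIs, with thresholds set after the marker distributions were seen. Cells of more than 1 gate were left out. So were cells in which a further class reached a set part of its threshold with 3 or more marker UMIs. Of 10869, 9700, 6754 and 7466 kept cells in WT-ND, WT-HFD, MT-ND and MT-HFD, 3284, 4089, 2081 and 2435 had no class. These include cells that passed no gate. A doublet score was used only as an alternative. PT cells were split into early and late by their share of late PT markers (at most 0.3 or at least 0.6, with 5 or more such UMIs). Counts were summed per class and library. Segment contrasts were tested with edgeR 4.0.16 (glmQLFit and glmQLFTest in R 4.3.3, TMM scaling, library as block, 24 sums, Benjamini-Hochberg adjustment over 11849 genes, threshold 0.05). The tests were checked on simulated counts first. The block takes out the mean level of each library. The number of mice behind each library is not given, so p-values measure only how class differences vary between these libraries. Diet and genotype also differ between them.

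Diet and genotype were compared as ratios of pooled CPM, with exact 95% intervals (Poisson for a level, conditional binomial for a ratio), among genes with 20 CPM or more in either library, and 2-fold was the call. Shares of cells have Clopper-Pearson intervals. Named genes were all members, their partners and paralogues, other regulators past 2-fold in a comparison, and the 3 genes most like each member by Pearson r among genes with 50 CPM or more in some sum. Target genes are given by counts, and those named were chosen after their values were seen. Some genes of the lists enter the counts but are not reported here by name. Alternatives were other gates, filters, scalings, DESeq2 1.42.0, the removal of called doublets and each library left out in turn. Total UMIs in place of TMM were added after seeing the data. Coordinates are from GENCODE vM21 (GRCm38), where 32158 of 32285 identifiers were found, and promoters from RefSeq on GRCm38.p6.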

Additional observations from a re-analysis of the deposited data

Results flagged for a closer look

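In early PT the diet ratio, HFD against ND, had opposite signs in WT and MT for 3 members. Hnf4a was at log2 -0.32 in WT and 0.028 in MT, Ppargc1a at 0.089 and -0.54, and Mlxipl at -0.30 and 0.11. In late PT the same held for Hnf4a, at -0.16 and 0.021, and for Nr1h4, at -0.14 and 0.86. Each value compares 1 library with 1 other, and the difference between genotypes was not tested. For the 3 members in early PT the smaller value of each pair had a counting interval that includes 0, and it changed sign under other settings, with ranges of -0.054 to 0.22 for Hnf4a in MT, -0.0073 to 0.18 for Ppargc1a in WT and -0.38 to 0.16 for Mlxipl in MT. In late PT this held for Hnf4a in MT (-0.16 to 0.046) and Nr1h4 in WT (-0.29 to 0.23).

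Barcodes left out for 50% or more mitochondrial UMIs also carried the members. The 2993 such barcodes with an early PT profile held Hnf4a at 163 CPM, Ppara at 31.5 CPM, Rxra at 18.1 CPM, Esrra at 53.9 CPM, Ppargc1a at 39.0 CPM, Nr1h4 at 73.4 CPM, Mlxipl at 60.7 CPM and Maf at 339 CPM over all libraries. In these barcodes Maf was at 368, 284, 369 and 309 CPM in WT-ND, WT-HFD, MT-ND and MT-HFD, and Ppara at 28.5, 41.6, 20.3 and 45.9 CPM.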

How the results depend on the processing

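The segment calls of Hnf4a, Ppara, Rxra, Ppargc1a, Nr1h4, Mlxipl and Maf against distal classes kept their direction and side of the threshold under each setting run, and with cells of mixed gates kept the early PT values of Hnf4a and Maf were log2 4.78 and 4.70. Esrra reversed in early PT against distal with 1 sum over all distal cells (log2 -0.012) and with total UMIs (-0.15), and in late PT with a 30% mitochondrial limit (-0.054), 1 distal sum (-0.21), total UMIs (-0.35) and without WT-ND, where values with each library left out ranged from -0.024 to 0.088. Its early PT value also missed the threshold at 0.13 with the 30% limit and 0.20 with DESeq2. The causes were not tested. With total UMIs the number of members lower in late PT than distal became 2. The number higher in early than late PT became 2 with at least 1000 UMIs per cell, with the marker thresholds multiplied by 2 and with called doublets removed, and 3 with no filter on low counts. It ranged from 1 to 2 with each library left out. The number lower became 1 with the 30% limit. Without MT-HFD the genes called between early and late PT went from 1115 to 697. Members past 2-fold for HFD against ND in MT became 1 in early PT with the 30% limit (Ppargc1a, lower) and with a mean over cells (Ppara, higher). In late PT they became 3 and 2 with these settings (Ppara and Ppargc1a higher in both, and Rxra lower with the 30% limit). Ppargc1a thus went in opposite directions in early and late PT. For MT against WT on ND in late PT the number became 1 (Ppara, lower) with TMM and with a mean over cells. Of the members' ratios under other settings, 47 lay outside the counting interval of the reported value and 593 did not. Maf for HFD against ND in late PT of MT ranged from -0.49 to 0.11. No paired analysis was possible because each group has 1 library and the comparisons between groups have no test. Late PT of MT-ND, with 64 cells, limits each late PT ratio that uses it.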

Other observations

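In late PT of MT, 6 of 9 PPARA targets at 20 CPM or more were past 2-fold lower on HFD and none was higher, among them Cyp4a10 (899.6 to 63.1 CPM) and Ehhadh (524 to 223 CPM). On ND, 4 of 9 were past 2-fold higher in late PT of MT than of WT and none was lower. Of all genes, 9.22% and 6.69% were past 2-fold in either direction in these comparisons. A target entered with 20 CPM in either library. In late PT, 5 entered for MT against WT on HFD and 6 for HFD against ND in WT. Some of the 9 thus entered only through MT-ND, and by this rule their ratios are lower on HFD and higher in MT on ND. Both counts rest on the same MT-ND sum of 64 cells. The part of this rule in the counts was not tested. Slc51a, an FXR target, had its lowest level in MT-ND in late PT as well, at 32.4 CPM against 86.8 CPM in WT-ND, 125 CPM in WT-HFD and 135 CPM in MT-HFD.

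Among the 8 targets of ERR alpha and PGC-1 alpha, none was past 2-fold between the diets in early PT, with medians of log2 0.17 in WT and 0.21 in MT. Cycs, the cytochrome c gene, went from 540.5 to 897 CPM in WT and from 521 to 949 CPM in MT. Fasn, the fatty acid synthase gene and a ChREBP target, was at 30.5 CPM in early PT of MT-ND and at 11.5, 8.44 and 8.26 CPM in WT-ND, WT-HFD and MT-HFD. These genes were chosen after their values were seen, and each value rests on 1 library.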
